A study of Mus musculus with 32 samples.

Results

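The Nr4a genes, *Nr4a1*, *Nr4a2* and *Nr4a3*, were followed in mouse hippocampal neurons before and after membrane depolarization. They were chosen by symbol, and the 3 genes are among 55573 genes of the deposited count table. Hippocampi of newborn pups were pooled within single litters, and neurons were grown on inserts with a porous membrane, so that neurites scraped from below could be separated from the soma fraction above, which also holds the neurites that did not pass the pores. WT neurons came from C57BL/6 mice and Mettl3 KO neurons from *Mettl3* flox/flox mice. Both genotypes received an AAV that expresses Cre under the human synapsin promoter at DIV 7, which acts in neurons and leaves *Mettl3*, the catalytic subunit of the m6A methyltransferase, in glia. All cultures were silenced for 16 h with 1 µM TTX, a sodium channel blocker, and 50 µM D-AP5, an NMDA receptor antagonist. At DIV 15 they were either left untreated (Ctrl) or depolarized for 2 h with 55 mM KCl. Each of 16 RNA-seq libraries was made from 50 ng of RNA, and they form 8 groups of 2 by genotype (WT or Mettl3 KO), fraction (soma or neurites) and treatment (Ctrl or KCl). The members of a group came from distinct litters, and untreated and KCl-treated neurons of an experiment from the same litter. DART-seq, in which an APOBEC1-YTH fusion converts cytidines next to m6A to uridine, gave a list of sites and a table of scores from WT and Mettl3 KO neurons.

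Nr4a proteins are transcription factors of the nuclear receptor superfamily that act without a known natural ligand, so that their activity follows their amount. In neurons their genes belong to the immediate early genes, whose transcription starts within minutes of calcium entry and needs no new protein. CREB, which binds cAMP response elements, is a known activator of this class, and Nr4a proteins are known for roles in hippocampal memory and, for *Nr4a2*, in the development and upkeep of dopamine neurons. The proteins bind DNA as monomers or dimers, and *Nr4a1* and *Nr4a2* can also pair with retinoid X receptors.

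In GRCm38, *Nr4a1* (ENSMUSG00000023034) lies at chr15:101254269-101274795 on the plus strand, *Nr4a2* (ENSMUSG00000026826) at chr2:57106830-57124003 on the minus strand and *Nr4a3* (ENSMUSG00000028341) at chr4:48045153-48086447 on the plus strand. Their counted exons span 3509, 4059 and 5987 bases. No exon of another gene overlaps them, and the exons share no 50-base word with each other. *Nr4a3* shares 9 of 5986 such words with other genes (*Dcdc2a*, *Gm45528* and *Vmn2r111*), and the others share none.

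The promoters are shown because the RNAs of the 3 genes moved together. Each window holds 250 bases before and 50 bases after the RefSeq start site on the GRCm38.p6 build, read along the strand of the gene. Capitals mark TGACG or its reverse complement CGTCA, the core of the cAMP response element.
Nr4a1, chr15:101266596-101266895, plus strand: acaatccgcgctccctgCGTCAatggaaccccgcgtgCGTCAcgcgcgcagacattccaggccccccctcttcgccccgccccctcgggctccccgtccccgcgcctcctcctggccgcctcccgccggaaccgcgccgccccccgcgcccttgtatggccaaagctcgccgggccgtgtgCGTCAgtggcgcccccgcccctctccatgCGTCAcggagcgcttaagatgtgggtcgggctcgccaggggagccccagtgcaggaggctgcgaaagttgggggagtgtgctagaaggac
Nr4a2, chr2:57123954-57124253, minus strand: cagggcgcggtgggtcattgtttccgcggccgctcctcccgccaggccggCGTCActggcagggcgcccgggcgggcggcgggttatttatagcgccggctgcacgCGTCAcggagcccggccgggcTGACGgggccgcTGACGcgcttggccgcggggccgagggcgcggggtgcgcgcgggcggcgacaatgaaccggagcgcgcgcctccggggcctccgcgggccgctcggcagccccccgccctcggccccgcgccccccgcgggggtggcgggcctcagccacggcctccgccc
Nr4a3, chr4:48045055-48045354, plus strand: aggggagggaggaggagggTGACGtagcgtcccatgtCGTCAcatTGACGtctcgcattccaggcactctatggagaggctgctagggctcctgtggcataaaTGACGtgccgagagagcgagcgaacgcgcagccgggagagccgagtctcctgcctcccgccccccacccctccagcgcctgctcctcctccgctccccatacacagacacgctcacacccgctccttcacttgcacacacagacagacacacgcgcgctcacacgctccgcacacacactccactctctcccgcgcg
The core occurred 4 times in each of the 3 windows. At least 1 core was present in 20.8% of the 32851 promoters of this table, and 4 or more in 0.231%. Relative to the start site, the first base of a match stood at -233, -213, -69 and -40 in *Nr4a1*, at -200, -144, -123 and -111 in *Nr4a2*, and at -231, -213, -205 and -147 in *Nr4a3*. The counted exons of *Nr4a3* start at 48045153, inside its window. Part of that window, with the core at -147, is thus annotated exon. The windows were rich in G and C, at 72.3%, 81.7% and 64.7% against a mean of 53.8% over the table, and the core contains a CG pair. The full element (TGACG followed by TCA, 1.79% of promoters), the AP-1 site (TGANTCA, 7.81%), the NBRE that Nr4a monomers bind (AAA followed by GGTCA, 1.51%) and the CArG box of SRF (1.63%) had no match in the 3 windows on either strand. The EGR site (GCG, then G or T, then GGGCG, 3.47% of promoters) had 1 match, in *Nr4a1*. These matches describe letters and not binding.

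The library totals ran from 33789183 to 71394235 counts. *Mettl3* was measured at 9.05 to 16.7 CPM (counts scaled to library size with TMM factors) in the WT libraries and at 3.91 to 10.98 CPM in the Mettl3 KO libraries. Within each fraction every WT library was above every Mettl3 KO library, but no comparison passed an adjusted p of 0.05 (edgeR, 0.259 to 0.624 over the 4 comparisons). All 5 neuronal markers were detected in every library, with a summed level of 636 to 4397 CPM. Replicate 1 of the KCl-treated Mettl3 KO neurons stood apart in both fractions. Its astrocyte markers summed to 8832 CPM in soma and 17686 CPM in neurites and its oligodendrocyte markers to 2862 and 6303 CPM, whereas replicate 2 had 1643 and 1959 CPM and 41.2 and 49.7 CPM. Its neuronal markers summed to 1014 and 636 CPM against 2624 and 3387 CPM in replicate 2. In bulk RNA, fewer neurons and less RNA per neuron cannot be told apart. The results of KCl-treated Mettl3 KO neurons are therefore given with these libraries and from a fit to the other 14. The 2 untreated Mettl3 KO soma libraries also differed from each other. The SD of their log2 ratio over 15170 genes was 1.09, against 1.05 in Mettl3 KO soma KCl and 0.19 in WT soma Ctrl. Their nuclear RNAs (*Malat1*, *Meg3*, *Snhg11* and *Neat1*) summed to 3388 and 8552 CPM. The comparisons of Mettl3 KO soma at rest and of its KCl response use this pair.

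In untreated neurons the 3 RNAs were scarce, and *Nr4a3* was the most abundant of them in WT. In the WT soma libraries, counts were 361 and 271 for *Nr4a1*, 415 and 338 for *Nr4a2*, and 957 and 692 for *Nr4a3*. In the WT neurite libraries they were 274 and 195, 301 and 230, and 747 and 640. In CPM per kb of exon, which can be compared between genes, the WT soma level was 1.23 ± 0.057 for *Nr4a1*, 1.27 ± 0.014 for *Nr4a2* and 1.88 ± 0.14 for *Nr4a3* (mean ± SD, n = 2, as for all means that follow). With the counted exon lengths *Nr4a1* and *Nr4a2* did not differ beyond their spread, and both *Nr4a3* libraries were above them. In WT neurites the levels per kb were 1.56 ± 0.15, 1.54 ± 0.23 and 2.77 ± 0.63, with the same order. Mettl3 KO neurons did not show this order: in soma the per-kb levels were 2.32 ± 0.45 for *Nr4a1*, 1.67 ± 0.41 for *Nr4a2* and 1.68 ± 0.60 for *Nr4a3*, and the libraries of *Nr4a3* ran from 1.25 to 2.10. Per kb, the Ctrl levels of the 3 genes ranked between 9721 and 13385 among 23335 expressed genes.

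**Figure D1:**
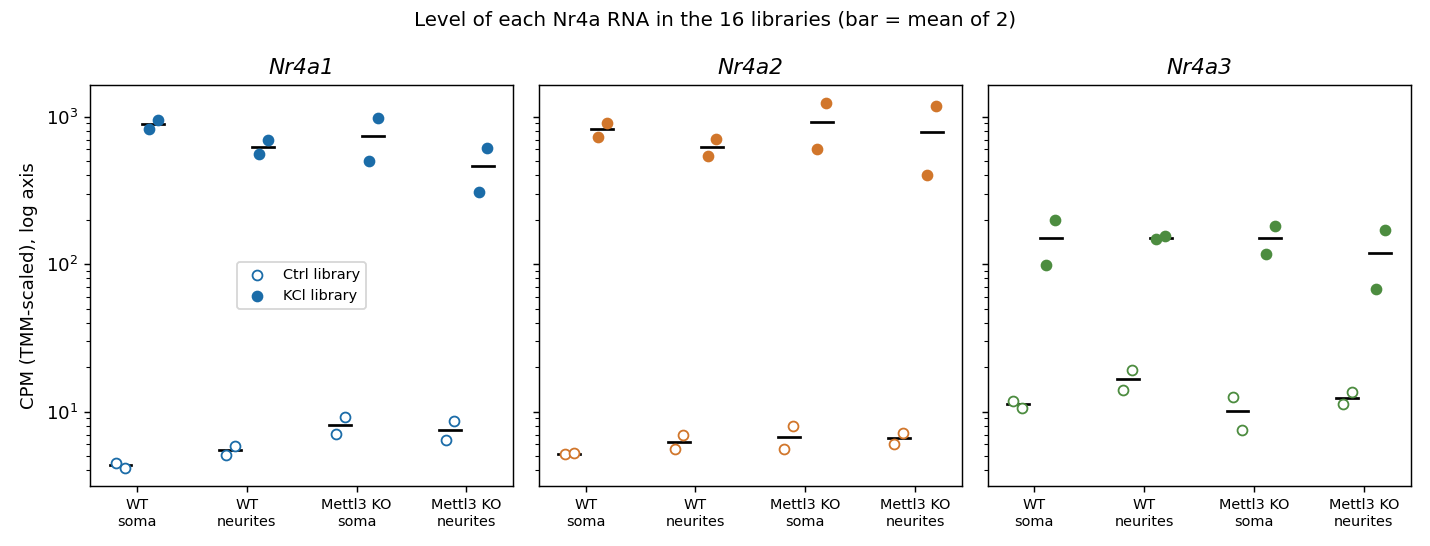
CPM (TMM-scaled, log axis) of *Nr4a1*, *Nr4a2* and *Nr4a3* in the 16 libraries. Open circles are untreated and filled circles KCl-treated libraries, and bars are means of 2. Every KCl library lies above every Ctrl library of its gene, and the step is smallest for *Nr4a3*, whose Ctrl libraries run from 7.49 to 19.2 CPM and KCl libraries from 67.6 to 200 CPM.

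KCl raised all 3 RNAs in WT soma. *Nr4a1* went from 4.46 and 4.18 CPM to 828 and 948 CPM, with 43655 and 65205 counts after KCl. The log2 change was 7.68 (SE 0.50, 95% interval 6.60 to 8.76), a 205-fold rise, with the smallest p of the 24060 genes tested (edgeR adjusted p = 5.93e-05). *Nr4a2* went from 5.13 and 5.21 CPM to 728 and 913 CPM, a log2 change of 7.31 (SE 0.59, adjusted p = 0.000361), second by p. *Nr4a3* went from 11.8 and 10.7 CPM to 99.3 and 200.4 CPM, a log2 change of 3.73 (SE 0.49, adjusted p = 0.00241), or 13.3-fold. Thus *Nr4a3*, the most abundant of the 3 at rest, had the smallest response, and its interval of 2.67 to 4.80 did not reach those of the other two. All 3 genes passed the threshold of 2-fold and an adjusted p of 0.05, which 1.33% of the genes tested passed in this direction. By size of the change they ranked 4, 7 and 104. After KCl the per-kb levels were 253 ± 24 for *Nr4a1*, 202 ± 32 for *Nr4a2* and 25.0 ± 12 for *Nr4a3*. *Nr4a1* ranked between 178 and 274 of the 23335 expressed genes per kb, and *Nr4a2* between 248 and 386. Removing either Ctrl library left only *Nr4a1* below an adjusted p of 0.05, with *Nr4a2* at 0.0507 without replicate 1 and 0.0505 without replicate 2, and *Nr4a3* at 0.0946 and 0.110. The log2 changes of these fits were 7.25 and 7.28 for *Nr4a2* and 3.76 and 3.62 for *Nr4a3*.

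The response in WT neurites followed the same order. *Nr4a1* rose from 5.11 and 5.86 CPM to 555 and 693 CPM, a log2 change of 6.83 (SE 0.48, adjusted p = 0.00017), again with the smallest p of 22059 genes. *Nr4a2* rose from 5.61 and 6.92 CPM to 540 and 708 CPM, a log2 change of 6.64 (SE 0.57, adjusted p = 0.000626). *Nr4a3* rose from 13.9 and 19.2 CPM to 148 and 155 CPM, a log2 change of 3.19 (SE 0.48, adjusted p = 0.00811). No Ctrl library reached a KCl library, and 1.09% of the genes tested passed the threshold in this direction. Without WT neurites Ctrl replicate 1 or 2, *Nr4a2* had an adjusted p of 0.0654 or 0.0508 and *Nr4a3* of 0.157 or 0.118, and without WT neurites KCl replicate 2, *Nr4a3* had 0.0557.

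In Mettl3 KO neurons the 3 RNAs also rose in both fractions. In soma *Nr4a1* went from 7.02 and 9.25 CPM to 501 and 985 CPM, *Nr4a2* from 5.59 and 7.95 CPM to 606 and 1236 CPM, and *Nr4a3* from 12.6 and 7.49 CPM to 117 and 181 CPM. The lower KCl value of each gene belonged to replicate 1, which had fewer neuronal and more glial transcripts, and the part of this in the result was not tested. The log2 changes were 6.51 (SE 0.48, adjusted p = 0.000329), 7.09 (SE 0.60, adjusted p = 0.000485) and 3.89 (SE 0.51, adjusted p = 0.00457), with 0.976% of genes called in this direction. In neurites *Nr4a1* went from 6.39 and 8.66 CPM to 310 and 615 CPM, *Nr4a2* from 6.00 and 7.18 CPM to 404 and 1180 CPM, and *Nr4a3* from 11.3 and 13.5 CPM to 67.6 and 172 CPM. The log2 changes there were 5.93 (SE 0.47), 6.90 (SE 0.60) and 3.26 (SE 0.49), at adjusted p = 0.000402, 0.000689 and 0.0104, and 0.937% of genes were called. Without the 2 libraries of KCl replicate 1 the changes were larger, at 6.89, 7.48 and 4.16 in soma and 6.35, 7.48 and 3.79 in neurites, and each stayed below an adjusted p of 0.05. When only the Mettl3 KO libraries were fitted, none of the 3 passed in either fraction, although the log2 changes hardly moved (6.45, 7.03 and 3.86 in soma). The adjusted p of *Nr4a1* was then 0.158 in soma and 0.222 in neurites. *Nr4a3* also missed the threshold in soma without Mettl3 KO soma Ctrl replicate 2 (adjusted p = 0.0784) and in neurites without Mettl3 KO neurites Ctrl replicate 1 or 2 (0.187 and 0.109). In neurites its adjusted p was 0.0937 by limma.

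**Figure D2:**
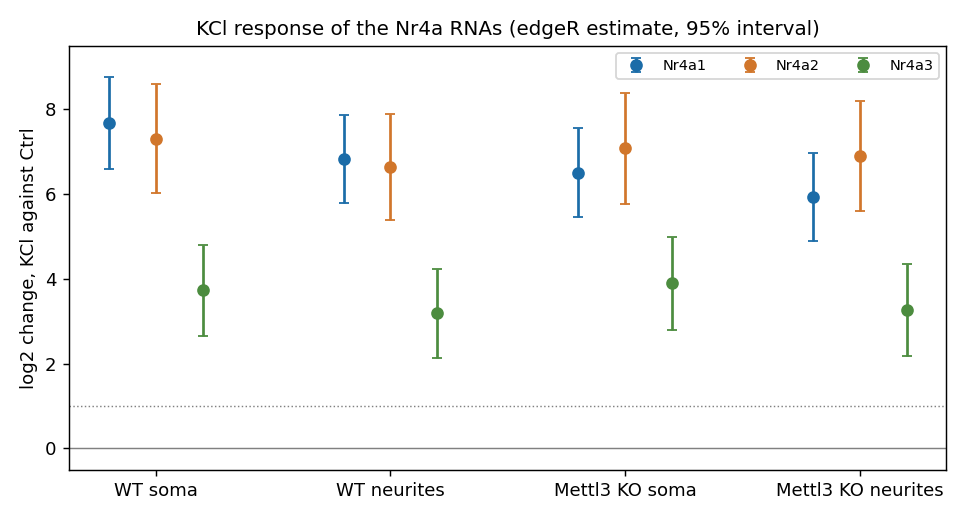
Log2 change of KCl against Ctrl for the 3 genes in each fraction and genotype, from the edgeR fit to 16 libraries. Points are estimates and bars 95% intervals, the solid line marks no change and the dotted line the 2-fold threshold. *Nr4a1* and *Nr4a2* lie between 5.93 and 7.68 and *Nr4a3* between 3.19 and 3.89.

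The make-up of the Nr4a pool changed accordingly. Of the summed level per kb of the 3 RNAs in WT soma, *Nr4a3* made up 43.8% and 41.9% in the Ctrl libraries and 3.84% and 6.33% after KCl. *Nr4a1* went from 28.2% and 28.0% to 54.6% and 51.1%, and *Nr4a2* from 28.0% and 30.2% to 41.5% and 42.5%. After KCl *Nr4a1* and *Nr4a2* accounted for nearly all of the pool, and the Ctrl and KCl libraries did not overlap for any of the 3 shares. In WT neurites the share of *Nr4a3* was 45.0% and 48.8% before and 7.80% and 6.52% after KCl. In Mettl3 KO neurons *Nr4a3* had 21.4% to 38.4% of the Ctrl pool over the 4 libraries and 4.92% to 6.29% after KCl. In the KCl libraries *Nr4a1* had a larger share than *Nr4a2* in all 4 WT libraries and a smaller one in all 4 Mettl3 KO libraries. This order rests on the counted exon lengths of 3509 and 4059 bases, which include exons of retained-intron transcripts. The selected protein-coding transcripts have 2553 and 3568 bases. With these lengths the Mettl3 KO order holds only in neurites KCl replicate 2. In the other KCl-treated Mettl3 KO libraries *Nr4a1* then has the larger share, as in WT. A difference between the genotypes in this order was not tested. The whole family took up 0.00216% to 0.00301% of all counts in the Ctrl libraries and 0.0797% to 0.242% in the KCl libraries.

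**Figure D3:**
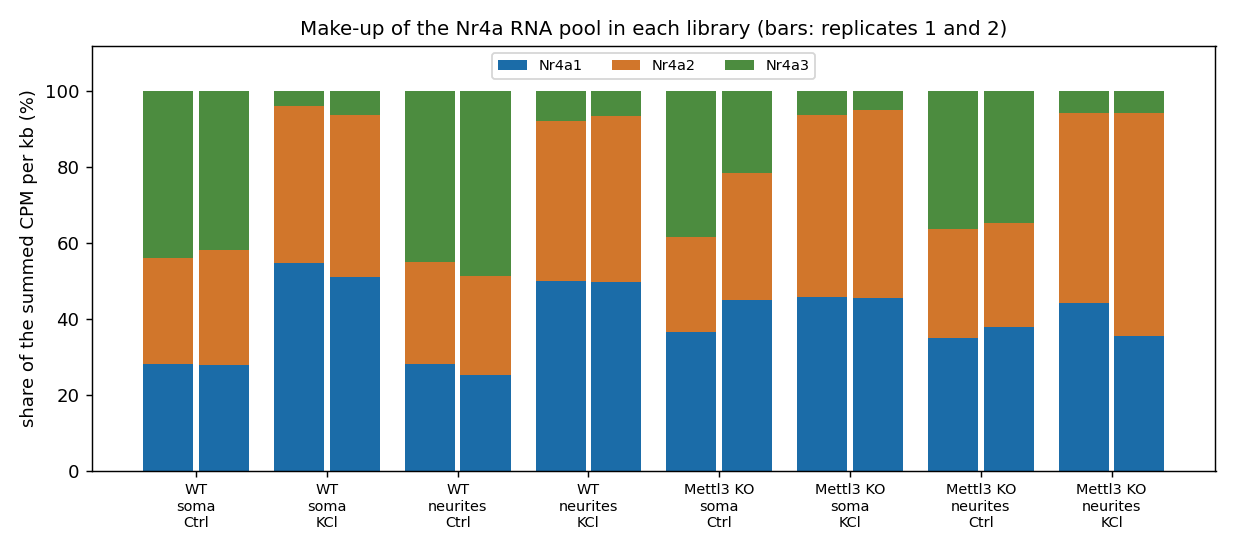
Share of each gene in the summed CPM per kb of *Nr4a1*, *Nr4a2* and *Nr4a3*, as stacked bars for the 16 libraries (each pair of bars shows replicates 1 and 2 of a group). *Nr4a3* takes 21.4% to 48.8% of the pool in the Ctrl libraries and 3.84% to 7.80% in the KCl libraries.

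Whether the loss of *Mettl3* altered the induction was tested as the difference of the KCl responses. In soma the response of *Nr4a1* was lower in Mettl3 KO by 1.17 on the log2 scale (log2 difference -1.17, SE 0.54, 95% interval -2.34 to -0.0038, an unadjusted p of 0.0494, adjusted p = 0.994). Those of *Nr4a2* and *Nr4a3* differed by -0.22 (interval -1.63 to 1.19) and 0.16 (interval -1.21 to 1.54). In neurites the differences were -0.89 (interval -2.06 to 0.28), 0.27 (interval -1.15 to 1.69) and 0.08 (interval -1.31 to 1.47). None of the 3 was called in either fraction, and neither was any of the 24058 genes tested in soma or 22311 in neurites (0% and 0%). At an unadjusted p of 0.05 and 1.5-fold, edgeR had 220 genes higher and 273 lower in soma and 630 higher and 287 lower in neurites, and at an adjusted p DESeq2 called 2 genes in soma and 0 in neurites and limma 0 in both. Without the filter on low counts, edgeR called 208 higher and 28 lower of 48316 genes in soma and 0 in neurites. No Nr4a gene was among these. Leaving out KCl-treated Mettl3 KO replicate 1, the differences were -0.73 (an unadjusted p of 0.0626), 0.23 and 0.48 for *Nr4a1*, *Nr4a2* and *Nr4a3* in soma. In neurites they were -0.52 (an unadjusted p of 0.172), 0.80 (an unadjusted p of 0.062) and 0.55. The intervals leave room for differences of more than 2-fold in either direction for *Nr4a2* and *Nr4a3*.

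At rest, both Mettl3 KO soma libraries had more *Nr4a1* (7.02 and 9.25 CPM) than both WT soma libraries (4.46 and 4.18 CPM). The log2 difference was 0.91 (SE 0.38, interval 0.09 to 1.73, an unadjusted p of 0.0324, adjusted p = 0.495), and 0.185% of genes were called in this comparison. In Ctrl neurites the difference of *Nr4a1* was 0.46 (interval -0.36 to 1.28), and 0.188% of genes were called. Of *Nr4a2* and *Nr4a3* the log2 differences were 0.39 and -0.17 in Ctrl soma and 0.08 and -0.41 in Ctrl neurites, with adjusted p of at least 0.847. After KCl the 3 genes differed between genotypes by -0.26, 0.16 and -0.01 in soma and by -0.44, 0.34 and -0.34 in neurites. None was called, with 0.212% and 0.44% of all genes called. In the fit to 14 libraries these differences were 0.15, 0.59 and 0.27 in soma and -0.034, 0.91 and 0.17 in neurites, where *Nr4a2* had an unadjusted p of 0.0099 (edgeR adjusted p = 0.207). The ranges of the WT and Mettl3 KO libraries after KCl overlapped for each of the 3 genes in both fractions.

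The distribution between soma and neurites was compared next. In untreated WT neurons each RNA was somewhat higher in neurites: the log2 difference of neurites against soma was 0.35 for *Nr4a1* (interval -0.47 to 1.17), 0.28 for *Nr4a2* (interval -0.71 to 1.27) and 0.56 for *Nr4a3* (interval -0.40 to 1.53). After KCl it was -0.50 for *Nr4a1* (interval -1.31 to 0.30), -0.39 for *Nr4a2* (interval -1.37 to 0.59) and 0.02 for *Nr4a3* (interval -0.94 to 0.98). In Mettl3 KO it was -0.11, -0.03 and 0.31 without and -0.68, -0.21 and -0.31 with KCl, and the latter were -0.69, -0.076 and -0.088 without replicate 1. None of these 12 values was called, and the fit to 16 libraries called 0% of genes in WT Ctrl, 0% in WT KCl, 0% in Mettl3 KO Ctrl and 0% in Mettl3 KO KCl. At an unadjusted p of 0.05 and 1.5-fold, edgeR had 1174 genes higher and 463 lower in WT Ctrl, 698 and 417 in WT KCl, 2100 and 1054 in Mettl3 KO Ctrl, and 202 and 254 in Mettl3 KO KCl. DESeq2 called 219, 61, 961 and 1 genes at an adjusted p, and limma called 2553 higher and 821 lower in WT Ctrl, 1005 and 457 in WT KCl and 0 in both Mettl3 KO comparisons. With only the libraries of the comparison, edgeR called 2458 higher and 745 lower in WT Ctrl and 1419 and 388 in WT KCl. In both Mettl3 KO comparisons it then called 0. No Nr4a gene was called in any of these fits. For *Nr4a1* in WT KCl, the smallest adjusted p over 12 alternative edgeR, DESeq2 and limma fits was 0.0324. No alternative passed the 1.5-fold limit as well. The nuclear RNAs *Malat1*, *Meg3*, *Snhg11* and *Neat1* summed to 6097 to 6105 CPM in WT Ctrl soma and 3885 to 3975 CPM in WT Ctrl neurites.

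The change of this ratio with KCl was tested with 1 term for each insert, which ties the pair of libraries that carry 1 number. In WT, *Nr4a1* had more RNA in neurites than in soma in both untreated inserts (log2 0.20 and 0.49) and less in both KCl-treated inserts (-0.58 and -0.45). *Nr4a2* went the same way, with 0.13 and 0.41 against -0.43 and -0.37. *Nr4a3* did not, since its KCl-treated inserts had 0.57 and -0.37. The fitted changes were -0.86 for *Nr4a1* (SE 0.26, an unadjusted p of 0.0102), -0.67 for *Nr4a2* (SE 0.29, an unadjusted p of 0.0497) and -0.45 for *Nr4a3* (SE 0.47, an unadjusted p of 0.371). *Nr4a1* and *Nr4a2* thus passed a threshold of 1.5-fold at an unadjusted p of 0.05, which 1.25% of genes passed in either direction, whereas the adjusted p was 1.00 for all 3. Both RNAs rose in neurites as well, by less than in soma. In Mettl3 KO the changes were -0.58 for *Nr4a1* (an unadjusted p of 0.056), -0.31 for *Nr4a2* and -0.79 for *Nr4a3*, none past the threshold that 6.79% of genes passed. The 2 KCl-treated Mettl3 KO inserts had ratios of -0.69 and -0.68 for *Nr4a1*, -0.58 and -0.07 for *Nr4a2*, and -0.79 and -0.08 for *Nr4a3*. Replicate 1, which had more glial transcripts, was thus lower for *Nr4a2* and *Nr4a3*, and the part of these transcripts in the result was not tested. Without it the fitted changes in Mettl3 KO were -0.53, -0.013 and -0.39. In Ctrl neurons the loss of *Mettl3* went with changes of -0.46, -0.29 and -0.20 in the ratio, none past the threshold that 4.19% of genes passed. The call of *Nr4a2* was lost in 11 of 11 alternative fits, in which its change was -0.74 to -0.53 and the unadjusted p 0.0173 to 0.312. The call of *Nr4a1* was lost without the term for the insert, where its change was -0.86 with an unadjusted p of 0.13. It was also lost without WT Ctrl replicate 1 (an unadjusted p of 0.0502), WT Ctrl replicate 2 (0.108) or WT KCl replicate 1 (0.0508), with changes of -0.94, -0.71 and -0.80.

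**Figure D4:**
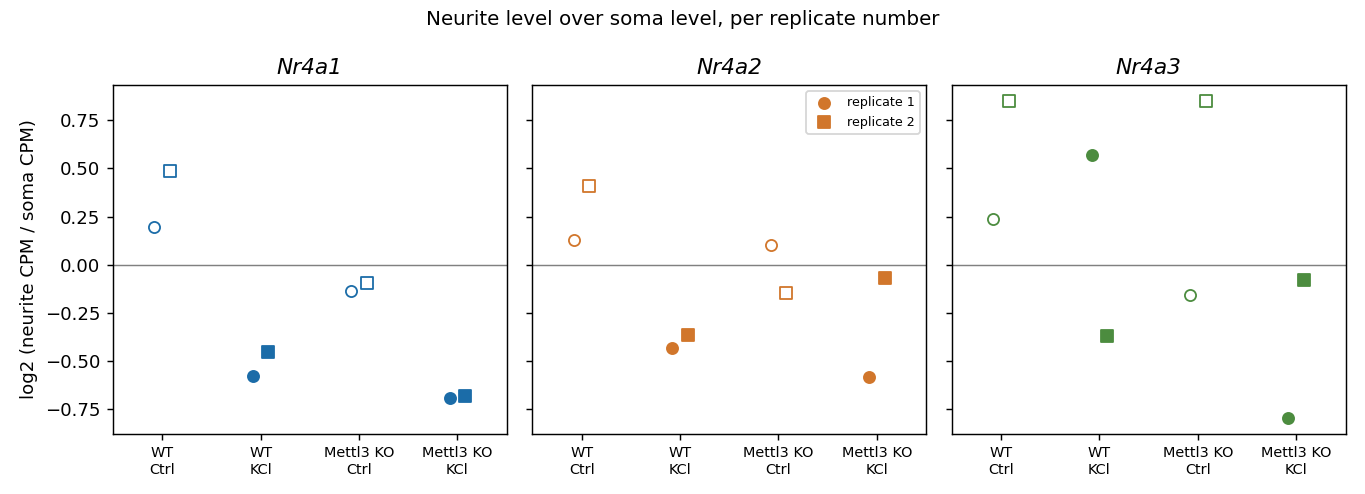
Log2 ratio of the neurite CPM to the soma CPM with the same replicate number, for the 3 genes. Open symbols are untreated and filled symbols KCl-treated inserts, circles replicate 1 and squares replicate 2. In WT, *Nr4a1* and *Nr4a2* lie above 0 in both untreated and below 0 in both KCl-treated inserts, and *Nr4a3* has KCl-treated inserts on both sides.

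Genes around the Nr4a pathway responded unequally to KCl. Of 17 upstream regulators (CREB and related factors, their coactivators, MEF2, SRF, ELK1 and histone deacetylases), edgeR called 0 in WT soma, WT neurites and Mettl3 KO soma. At an unadjusted p of 0.05 there were 4, 3 and 3, and at an adjusted p DESeq2 called 3, 0 and 3 and limma 3, 2 and 0. The smallest p in WT soma belonged to *Crem*, which gives rise to the CREB antagonist ICER (log2 change 1.89, adjusted p = 0.0903), *Elk1* (-1.11, adjusted p = 0.103), *Srf* (1.63, adjusted p = 0.178) and *Crtc3*, a CREB coactivator (-0.71, adjusted p = 0.517). *Elk1*, a partner of SRF, was called in Mettl3 KO neurites, with a log2 change of -1.46 (edgeR adjusted p = 0.0386). It was 1 of 3 regulators at an unadjusted p of 0.05 there, and at an adjusted p DESeq2 called 1 regulator higher and 1 lower and limma 0. The median change of the list in WT soma was -0.01 against 0.08 over all genes tested. Counts over all genes follow for WT soma, WT neurites, Mettl3 KO soma and Mettl3 KO neurites. At an adjusted p, edgeR called 341, 263, 277 and 223 of 24060, 22059, 23679 and 22199 genes. DESeq2 called 834, 620, 1228 and 1134 and limma 1873, 1294, 36 and 46. At an unadjusted p of 0.05 and 2-fold, edgeR had 1036, 827, 1847 and 2058 higher and 612, 523, 1146 and 857 lower. The list counts at an unadjusted p have no fold limit.

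Of 46 other nuclear receptors 36 were tested in WT soma, 33 in WT neurites, 34 in Mettl3 KO soma and 33 in Mettl3 KO neurites, and edgeR called 0 in each. At an unadjusted p of 0.05 there were 0, 0, 7 and 5, and at an adjusted p DESeq2 called 0, 0, 2 and 1 and limma 0 in each. The unadjusted and DESeq2 counts over all genes, given above, were also larger in Mettl3 KO than in WT. The median changes were -0.04, -0.25, -0.00 and -0.10, against 0.08, -0.03, 0.10 and 0.07 over all genes tested. The smallest p in WT soma were those of *Rora* (0.66, adjusted p = 0.678), *Nr2c2* (-0.43, adjusted p = 0.753), *Nr2f2* (0.33, adjusted p = 0.939) and *Nr2c1* (-0.55, adjusted p = 0.942). Of 9 dimer partners and coregulators, among them the retinoid X receptors, edgeR, DESeq2 and limma called 0 in each of the 4 comparisons, and at an unadjusted p of 0.05 there were 0, 0, 1 and 0.

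Of 9 genes known as Nr4a targets, many of them genes of dopamine neurons or of hormone systems, 1 was called in each comparison. *Bdnf*, a neurotrophin gene that is itself induced by activity, rose by 3.20 on the log2 scale in WT soma (edgeR adjusted p = 0.00162), by 3.14 in WT neurites, by 3.03 in Mettl3 KO soma and by 3.03 in Mettl3 KO neurites. The next by p in WT soma were *Crh*, the corticotropin-releasing hormone gene (0.94, adjusted p = 0.882), *Slc18a2*, a vesicular monoamine transporter (0.41, adjusted p = 0.921), and *Pomc*, the precursor of corticotropin (0.80, adjusted p = 1.00). Of 12 other rapid activity-induced genes, edgeR called 10 higher in WT soma and 10 in WT neurites. In Mettl3 KO it called 10 higher in soma and 8 in neurites. With an unadjusted p, all 12 passed in each comparison. At an adjusted p, in the same order, DESeq2 called 12, 11, 12 and 12 higher and limma 12, 12, 9 and 8. The smallest p in WT soma were those of *Npas4* (8.01), *Fos* (7.88), *Atf3* (6.97) and *Fosb* (8.23), each at adjusted p = 0.000886 (edgeR). The median log2 change of this list was 6.62 in WT soma and 5.37 in WT neurites. The changes of *Nr4a1* and *Nr4a2* were above these medians and that of *Nr4a3* below them.

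Over the 16 libraries, the RNAs whose log2 CPM followed *Nr4a1* most closely were *Npas4* (Pearson r = 0.996), *Fosb* (r = 0.994) and *Gadd45g* (r = 0.993), and those nearest *Nr4a2* were *Npas4* (r = 0.994), *Tiparp* (r = 0.993) and *Gadd45g* (r = 0.992). *Nr4a3* was followed by *Zfp184* (r = 0.986), *Fosl2* (r = 0.984) and *Gadd45g* (r = 0.981). These values describe 15170 genes over 16 libraries that fall into untreated and KCl-treated clusters, so that any gene raised by KCl scores high. Among the 3 genes r was 0.996 for *Nr4a1* with *Nr4a2*, 0.974 for *Nr4a1* with *Nr4a3* and 0.979 for *Nr4a2* with *Nr4a3*.

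DART-seq listed 23 sites in the 3 RNAs out of 18231 sites in 5643 RNAs, with 10 in *Nr4a1*, 6 in *Nr4a2* and 7 in *Nr4a3*. The median RNA had 2 sites, and *Nr4a1* had more than 96.5% of them. A site needed a minimum of 50 reads, and this ranking takes no account of RNA level. The part of the KCl rise in the number of sites was not tested. The sites with a C-to-U conversion of at least 5% are shown, each with 21 bases of the RNA strand from GRCm38 written as DNA, and capitals mark the converted C with the preceding 2 bases, of which the nearer A is the putative m6A.
Nr4a1, site at chr15 position 101272698, 5.07%: tcatgtggAACttacctgcgt
Nr4a1, site at chr15 position 101273213, 8.23%: agaaactaGACtgggcccaag
Nr4a1, site at chr15 position 101273513, 8.94%: ggtccagaAACaggacctact
Nr4a2, site at chr2 position 57113740, 10.9%: ctgcagttGACccaagatact
Nr4a2, site at chr2 position 57112158, 7.44%: aggtagaaGACattcagatgc
Nr4a3, site at chr4 position 48045265, 5.21%: catacacaGACacgctcacac
Nr4a3, site at chr4 position 48083429, 5.02%: tgggtttgAACaccttccaca
All 23 sites had an A or G, then A, before the converted C, and 20 matched the DRACH consensus of m6A (A, G or T, then A or G, then AC, then A, C or T). The conversion per site ran from 0.787% to 10.9%, and the median over all listed sites was 3.54%.

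The 3 RNAs differed in where their sites lie in the GENCODE annotation used here. The authors searched annotated exons and extended 3′UTRs, so a site in no exon here may lie in an exon of their annotation. In *Nr4a1*, 4 sites were in coding sequence, 4 in exons that belong to retained-intron transcripts only and 2 in no annotated exon, where the site at 101272698 lies. In *Nr4a2*, 3 were in coding sequence, 1 in an exon of a processed transcript only and 2 in no exon, among them the most converted site of the family at 57113740. In *Nr4a3* all 7 were in exons of the protein-coding transcript, with 4 in the 5′UTR, 2 in coding sequence and 1 in the 3′UTR, 77 bases after the stop codon. Hence 9 of the 23 sites lay outside the exons of protein-coding transcripts, against 1.20% of all sites in exons of other transcript types only and 1.72% in no exon. The sites in other transcript types carried 3.11% to 8.94% conversion in *Nr4a1*, whose 4 coding sites carried 1.26% to 4.77%. No site of *Nr4a1* or *Nr4a2* was listed in the 3′UTR. The exons of the retained-intron transcripts also count toward the exon length and the RNA-seq counts used here.

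**Figure D5:**
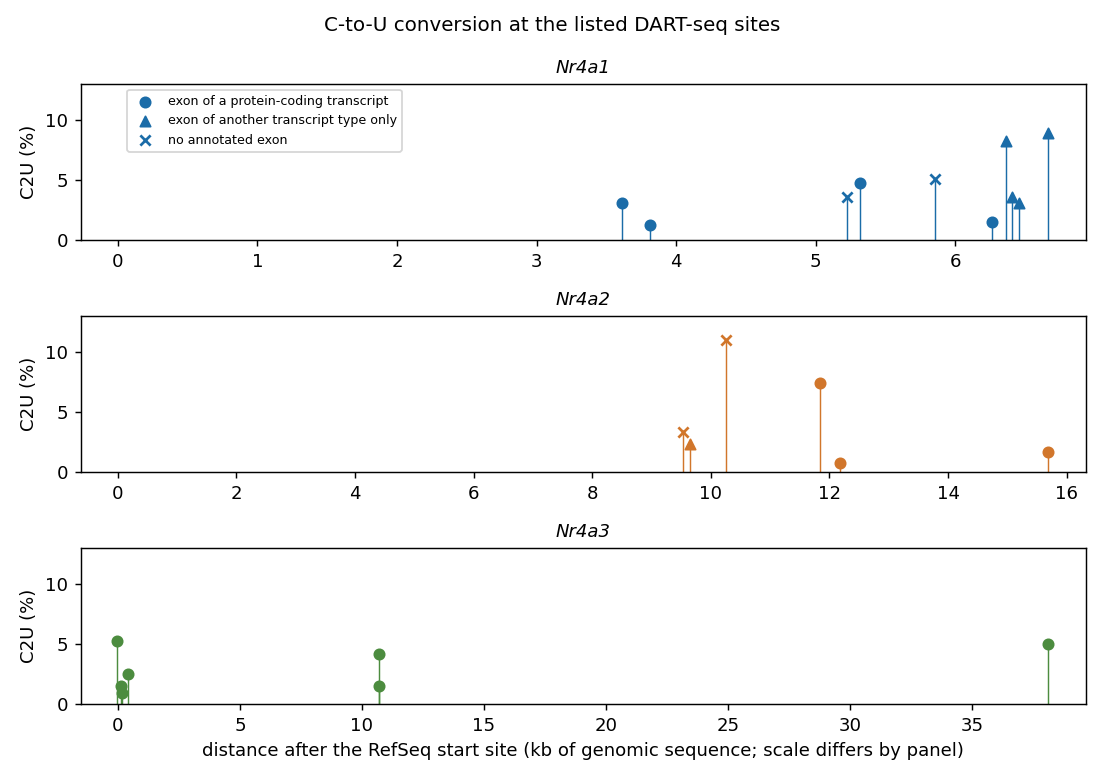
C-to-U conversion in percent at the 23 listed DART-seq sites against the distance from the RefSeq start site in kb of genomic sequence (the scale differs by panel). Circles are sites in exons of protein-coding transcripts, triangles in exons of other transcript types only and crosses outside annotated exons. The first site of *Nr4a3* lies just before the RefSeq start, in an Ensembl exon. The triangles and crosses make up 6 of 10 sites in *Nr4a1*, 3 of 6 in *Nr4a2* and 0 of 7 in *Nr4a3*.

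The editing score of an RNA sums the average conversion over its sites. It was 0.330 in WT for *Nr4a1*, 0.217 for *Nr4a2* and 0.183 for *Nr4a3*, above the median of 0.103, and higher than in 91.4%, 79.3% and 73.1% of 5634 RNAs. The conversions in the site list do not add up to these scores, since as fractions they sum to 0.432, 0.266 and 0.210 over all sites of each RNA, and which libraries were averaged for the site list is not given in the sources used here. In Mettl3 KO the score was 0.134, 0.0623 and 0.0779. Sites were kept by the authors for a higher conversion in WT, so the difference between the genotypes is set by this choice. The score of *Nr4a1* was 0.249 in soma and 0.470 in neurites, a ratio of 1.89, whereas the median ratio over RNAs was 1.30 and 75.5% of RNAs had a lower one. For *Nr4a2* the scores were 0.196 and 0.245 (ratio 1.25), and for *Nr4a3* 0.182 and 0.185 (ratio 1.02). The study describes its WT and Mettl3 KO averages as taken over all samples of a genotype. Its soma and neurite averages each pool untreated and KCl-treated samples, so the ratios cannot be assigned to either treatment. These scores are averages over libraries with unknown depth and without replicate values, so no error can be given and none of these differences was tested.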

How the data were processed

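RNA-seq covered 16 libraries and DART-seq another 16. The authors trimmed reads, aligned them to mm10 with STAR 2.7.7a and deposited raw counts per gene from featureCounts 2.0.1 with the GRCm38.97 annotation, counting multi-mapping reads and without strand. Library totals were 33789183 to 71394235 counts. The mean normalized signal in the authors' DESeq2 tables was not analysed, and only the gene symbols and biotypes beside it were used. Those tables also hold the authors' fold changes and p-values of neurite enrichment, which were not used. For DART-seq the authors deposited the C-to-U fraction at each called site and a score per RNA, the sum of the average fraction over its called sites, both averaged over libraries. They kept sites with a minimum of 50 reads, an RAC motif and a higher conversion in WT than in Mettl3 KO.

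Counts were tested with edgeR 4.0.16 (quasi-likelihood, TMM scaling, two-sided, R 4.3.3) on genes averaging 10 counts or more over the compared libraries, in 1 fit to all 16 libraries with Benjamini-Hochberg adjustment over all genes tested. KCl was called at 2-fold and other comparisons at 1.5-fold, both at an adjusted p of 0.05. Changes of the neurite to soma ratio were fitted with 1 term per insert and called at an unadjusted p of 0.05, as in the study's design. Same-numbered soma and neurite libraries were taken as 1 insert from the study's methods and the labels' replicate numbers. Deviations of same-numbered soma and neurite libraries correlated at -0.137 in WT Ctrl and 0.033 in WT KCl. In Mettl3 KO they correlated at 0.076 in Ctrl and 0.897 in KCl. The WT values thus do not show that same-numbered libraries are 1 insert. Between same-numbered Ctrl and KCl libraries the correlations were -0.076 to 0.19. CPM were scaled by TMM, and a prior count of 2 was added for correlations only. Alternatives were DESeq2 1.42.0, limma 3.58.1 with library weights, other scaling, filter, libraries and blocks. The code was tested on simulated data. Figures were drawn with Python 3.11.15 and matplotlib 3.10.9. The groups hold 2 libraries each, from cultures of distinct litters. In the main fit the p-values rest on a spread shared over the 8 groups. That fit does not tie the 2 fractions of an insert or the 2 treatments of a litter. With 1 term per insert, the p-values rest on the spread of the neurite to soma ratio between inserts.

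The members and gene lists were chosen with earlier results of these data known. Named were the 3 genes, *Mettl3*, the 3 genes most correlated with each member among genes averaging 100 counts or more, and up to 4 genes of each list by the smallest p of KCl in WT soma. Marker genes and nuclear RNAs were named beside results. Promoters and genome sequence are from RefSeq.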

Additional observations from a re-analysis of the deposited data

Results flagged for a closer look

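The log2 ratio of neurites to soma differed between KCl-treated and untreated WT neurons by -0.86 for *Nr4a1* (an unadjusted p of 0.0102) and by -0.67 for *Nr4a2* (an unadjusted p of 0.0497). Both were tested with edgeR as the difference of 2 neurite terms, and neither passed the adjustment over 23200 genes (adjusted p = 1.00 for both). Both WT inserts of each treatment showed the direction, with positive ratios without and negative ratios with KCl. In 22 of 22 alternative fits of the 2 genes, which reuse the same libraries, the sign was the same. The threshold was passed in 7 of 11 for *Nr4a1* and in 0 of 11 for *Nr4a2*. The shift was not particular to these genes. Of the 12 other rapid activity-induced genes 6 were called lower and 0 higher at the unadjusted p, with a median change of -0.74. DESeq2 called 5 of them lower and 0 higher. Over all 23200 genes tested, edgeR called 192 lower and 99 higher, with a median change of -0.06, and 0 at an adjusted p. The study reported a negative correlation between this change and the KCl change of RNA level in soma.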

How the results depend on the processing

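The KCl response of the 3 genes kept its sign in 144 of 144 alternative values and passed the threshold in 119. With only the libraries of the comparison, or only those of the same genotype, 0 of the 3 genes were called in Mettl3 KO soma and 0 in Mettl3 KO neurites. Leaving out 1 library in turn left 1 to 3 genes called in WT soma and 1 to 3 in WT neurites. The number of all genes higher with KCl in WT soma was 320 by edgeR, 597 by DESeq2, 1157 by limma, 1014 with the libraries of the comparison alone, 899 with those of the same genotype and 561 with the 14 libraries. It was 1 without WT soma Ctrl replicate 1 or 2, 192 without WT soma KCl replicate 1 and 124 without replicate 2, so that the share of all genes called depended on the fit. The number of Nr4a genes called stayed within 1.5 times in 114 of 126 other alternatives and in 67 of 76 with a library left out, but the number of all genes called did so in only 62 of 126 and 34 of 76. The cause of these differences was not tested.

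For the change in neurite enrichment with KCl in WT, 1 gene was called by DESeq2, 1 with the libraries of the comparison alone, 1 with RLE scaling, 1 without the filter on low counts, 1 without KCl-treated Mettl3 KO replicate 1 (14 libraries) and 0 to 1 with an insert left out. With no replicate block, 0 were called. In Mettl3 KO 1 gene was called without the filter and 0 to 1 with an insert left out. Crossing the WT Ctrl numbers, chosen after seeing the data because same-numbered libraries were anticorrelated, left 1 gene called in WT and 0 in the change with Mettl3 KO in Ctrl, with 96 genes higher and 206 lower and 707 higher and 328 lower among all genes. With a minimum conversion of 5%, 7 DART-seq sites were left.

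The sign of the following uncalled log2 differences changed. Under limma the KCl response of Mettl3 KO against WT in neurites was -0.021 for *Nr4a2* and -0.20 for *Nr4a3*, and Mettl3 KO against WT in KCl soma was 0.062 for *Nr4a3*. With the replicate block, that response was -0.011 for *Nr4a3*, neurites against soma in Mettl3 KO Ctrl 0.0014 for *Nr4a2*, and Mettl3 KO against WT in KCl soma 0.012 for *Nr4a3*. The replicate block changed no call of the 3 genes outside the change in neurite enrichment. Without the filter, neurites against soma in WT KCl was -0.0079 for *Nr4a3*. With the 14 libraries, the KCl response in soma was 0.23 for *Nr4a2*, and Mettl3 KO against WT was 0.15 for *Nr4a1* and 0.27 for *Nr4a3* in KCl soma and 0.17 for *Nr4a3* in KCl neurites.

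With 1 library or insert left out, the KCl response of Mettl3 KO against WT ran from -0.83 to 0.19 for *Nr4a2* and -0.26 to 0.75 for *Nr4a3* in soma, and from -0.70 to 0.84 and -0.75 to 0.59 in neurites. Neurites against soma ran from -0.40 to 0.61 for *Nr4a3* in WT KCl. In Mettl3 KO Ctrl it ran from -0.38 to 0.10 for *Nr4a1*, -0.26 to 0.23 for *Nr4a2* and -0.026 to 0.73 for *Nr4a3*, and in Mettl3 KO KCl from -1.22 to 0.42 for *Nr4a2* and -1.18 to 0.24 for *Nr4a3*. The change in enrichment of *Nr4a3* ran from -0.91 to 0.027 with KCl in WT and from -0.63 to 0.31 with Mettl3 KO in Ctrl. Mettl3 KO against WT ran from -0.59 to 0.13 for *Nr4a3* in Ctrl soma and -0.067 to 0.23 for *Nr4a2* in Ctrl neurites. In KCl soma it ran from -0.84 to 0.16 for *Nr4a1*, -0.45 to 0.60 for *Nr4a2* and -0.43 to 0.58 for *Nr4a3*, and in KCl neurites from -1.04 to 0.0025, -0.65 to 0.94 and -1.19 to 0.21. A group left with 1 library was assumed to vary like the others.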
